A study of Homo sapiens with 6 samples.

Results

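The G2/M and mitosis genes are 46 genes that act between entry into mitosis and the separation of the daughter cells. They were taken by symbol from a list, and all 46 had a row of their own among the 60591 genes of the deposited count table. All 46 also passed the filter on low counts that left 21825 genes for testing. The list goes by function.

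Cells enter mitosis when CDK1, bound to a cyclin, is switched on with the help of CDC25 phosphatases and PLK1. The spindle checkpoint then holds the anaphase-promoting complex (APC/C) inactive until every kinetochore is attached to the spindle, after which securin and the B cyclins are destroyed. Transcripts of most of these genes build up in G2 and mitosis of each cycle, so their level in a culture is widely used as a measure of proliferation. In squamous epithelium they are expressed in the dividing basal and parabasal layers.

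The libraries came from KYSE150, an established human cell line of oesophageal squamous cell carcinoma. The TPA group (3 libraries) received TPA, a phorbol ester that activates protein kinase C, at 10 ng/ml for 24 h. The DMSO group (3 libraries) received the solvent, for which the labels give no dose or time. The protocol text, the same for both groups, has cells kept in serum-free medium overnight beforehand, so both arms are starved cultures of 1 cell line. The question was which transcripts differ between TPA and DMSO, and here it is asked of the mitotic genes, over the groups and within each same-numbered pair of libraries (pair 1 is TPA 1 against DMSO 1).

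Library totals ran from 28915283 to 33965547 counts in TPA and from 27702329 to 30207144 in DMSO, and the lowest count of any member in a library was 62. Squamous epithelial markers (6 genes) summed to between 1032 and 1990 CPM (counts scaled to the normalised library size, as used throughout) in TPA and between 1353 and 2863 CPM in DMSO. The 4 leukocyte markers summed to at most 1.45 CPM in TPA and 3.84 CPM in DMSO, the 4 fibroblast markers to at most 10.5 and 12.2 CPM, and the 3 endothelial markers to at most 2.25 and 2.93 CPM. Most of the leukocyte sum was CD3E and most of the fibroblast sum COL1A1, and the fibroblast gene DCN was at 0 in every library. Single squamous markers went both ways. The basal keratin KRT5 had 66.7, 490.5 and 509 CPM in TPA, against 428, 1736 and 1780 CPM in DMSO, and TP63 was also lower in each pair. The keratin KRT14 had 6.05, 36.7 and 35.7 CPM in TPA, against 6.45, 19.3 and 18.3 CPM in DMSO, and KRT6A had 1.41, 21.7 and 22.2 CPM in TPA, against 0.461, 1.19 and 1.82 CPM in DMSO. CDH1 (E-cadherin) and EPCAM were higher in TPA in each pair. The part of these markers in the results was not tested. TPA 2 and TPA 3 were close to each other (chi-square per degree of freedom 6.17), as were DMSO 2 and DMSO 3 (7.33), but both still differed by more than sampling noise. TPA 1 differed from TPA 2 and TPA 3 by 262 and 223, and DMSO 1 from DMSO 2 and DMSO 3 by 47.9 and 51.9. The libraries numbered 1 therefore stood apart, and the counts of calls by edgeR over the members, each role and each other list are also given without both of them.

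Promoters of mitotic genes are known for the cell cycle genes homology region (CHR), bound by the MuvB complex with repressive or activating partners, and for CCAAT boxes, bound by NF-Y. The window from 250 bases before to 50 bases after the start was on hand for 38 of the 46 members. A CHR core (TTTGAA, or the variant TTCGAA, on either strand, overlaps counted) was present in 28 of 38 windows (73.7%), against 16.6% of all 27305 promoter windows. It lay within 50 bases of the start in 23 members (60.5%), against 5.05% of all windows. CCAAT on either strand was present in 30 of 38 (78.9%), against 35.7%, and both elements in 24 (63.2%), against 6.58%. Members with a negative TPA against DMSO value carried a CHR core in 23 of 29 windows and those with a positive value in 5 of 9. Windows of both kinds of member thus held the motif. No positive value passed the test reported below, and some, such as that of ESPL1, were negative in other fits. The motifs are matches of letters and not measured binding. For the CHR only TTTGAA and TTCGAA were searched, so any other form of it was not counted.

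The sequences are the windows of the 2 members that passed the test, TOP2A and BUB1B, and of the 2 with the most positive fitted values, CDC20 and ESPL1, so that the same elements can be seen on both sides (RefSeq, GRCh38.p14, 5′ to 3′ along the gene; capitals mark CHR cores and CCAAT boxes of either strand).
TOP2A promoter (chr17:40417847-40418146, minus strand): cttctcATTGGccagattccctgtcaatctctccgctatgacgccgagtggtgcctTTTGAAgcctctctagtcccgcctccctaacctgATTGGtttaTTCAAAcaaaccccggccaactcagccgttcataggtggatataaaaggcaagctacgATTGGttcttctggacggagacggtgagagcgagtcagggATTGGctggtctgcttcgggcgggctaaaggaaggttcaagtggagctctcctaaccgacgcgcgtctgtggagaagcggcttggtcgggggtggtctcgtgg
BUB1B promoter (chr15:40160819-40161118, plus strand): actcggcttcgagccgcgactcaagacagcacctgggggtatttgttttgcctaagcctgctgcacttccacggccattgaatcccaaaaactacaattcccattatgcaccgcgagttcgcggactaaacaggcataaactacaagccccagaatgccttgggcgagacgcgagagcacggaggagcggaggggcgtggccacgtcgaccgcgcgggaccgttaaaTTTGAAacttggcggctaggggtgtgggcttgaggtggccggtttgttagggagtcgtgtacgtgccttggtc
CDC20 promoter (chr1:43358731-43359030, plus strand): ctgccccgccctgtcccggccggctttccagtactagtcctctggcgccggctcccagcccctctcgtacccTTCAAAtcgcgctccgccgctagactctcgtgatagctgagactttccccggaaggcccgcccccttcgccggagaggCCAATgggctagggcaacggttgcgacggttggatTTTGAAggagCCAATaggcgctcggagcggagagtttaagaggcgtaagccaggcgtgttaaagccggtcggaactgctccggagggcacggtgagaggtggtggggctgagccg
ESPL1 promoter (chr12:53268049-53268348, plus strand): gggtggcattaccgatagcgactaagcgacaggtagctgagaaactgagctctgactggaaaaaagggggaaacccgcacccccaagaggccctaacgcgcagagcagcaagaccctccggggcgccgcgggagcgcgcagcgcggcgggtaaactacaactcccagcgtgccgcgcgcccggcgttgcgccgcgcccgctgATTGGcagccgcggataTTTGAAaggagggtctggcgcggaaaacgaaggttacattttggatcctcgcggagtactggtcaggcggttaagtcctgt
TOP2A has 2 CHR cores and 4 CCAAT boxes in this window, CDC20 has 2 and 2, and ESPL1 has 1 and 1. BUB1B has 1 CHR core and 0 CCAAT boxes there.

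In cells given TPA, transcripts of 2 mitotic genes fell and none rose in the test over all 6 libraries, both near its threshold. TOP2A, the topoisomerase that untangles sister chromatids (chromosome 17, 40388516 to 40417950, minus strand, GENCODE 29 on GRCh38), had 99.0, 85.6 and 93.5 CPM in TPA libraries 1, 2 and 3, against 191, 221 and 242 CPM in DMSO libraries 1, 2 and 3. BUB1B, the checkpoint protein BubR1 (chromosome 15, 40161023 to 40221136, plus strand), had 21.4, 14.9 and 16.4 CPM in TPA, against 39.3, 50.1 and 44.3 CPM in DMSO. For both genes every TPA library was below every DMSO library. The log2 fold change was -1.23 ± 0.20 for TOP2A (SE, adjusted p = 0.0411) and -1.35 ± 0.24 for BUB1B (adjusted p = 0.0498). Both are from the quasi-likelihood test of edgeR, adjusted over all genes by the Benjamini-Hochberg method, as are all adjusted p-values here unless another fit is named. With RLE in place of TMM scaling factors BUB1B no longer passed (adjusted p = 0.0516). In bulk RNA, fewer cells in G2 or mitosis and less of a transcript in each such cell cannot be told apart.

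**Figure D1:**
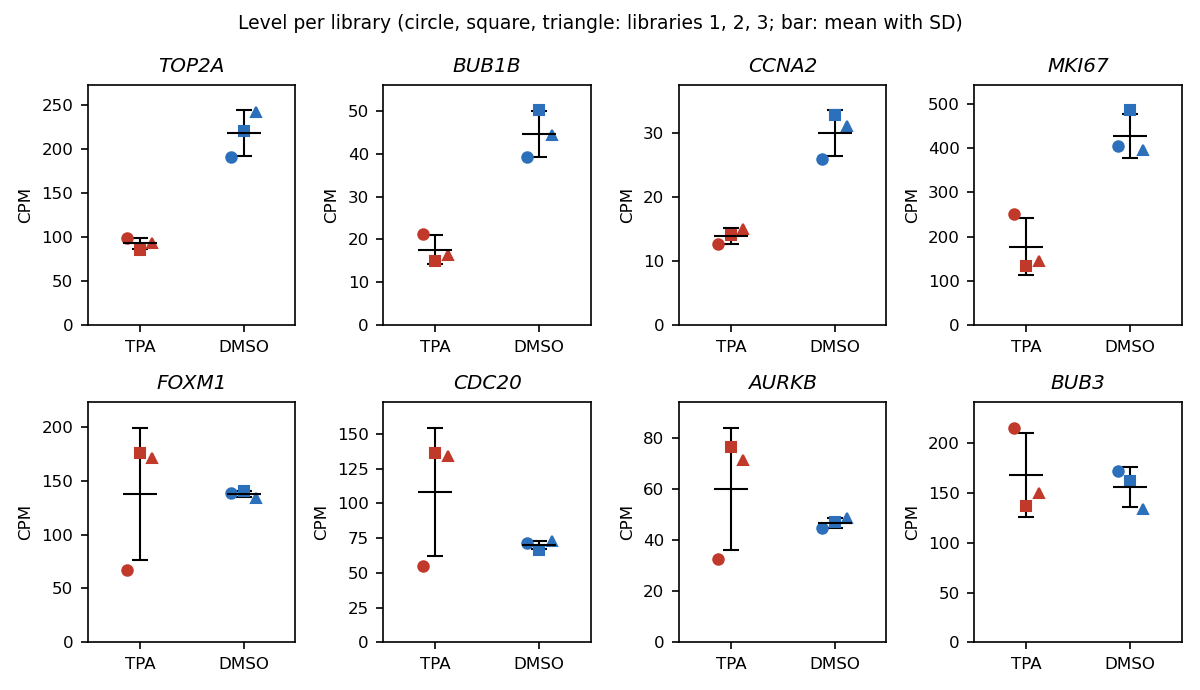
CPM (vertical axis, from 0) of 8 mitotic genes in each TPA and DMSO library; circles, squares and triangles are libraries 1, 2 and 3, and bars are the mean with SD (n = 3). TOP2A, BUB1B, CCNA2 and MKI67 have every TPA library below every DMSO library, while for FOXM1, CDC20 and AURKB TPA 1 lies below and TPA 2 and 3 above the DMSO libraries.

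Called lower were thus 2 of 46 members, where 0.394% of all tested genes were called lower, and called higher were 0 of 46, where 0.861% were. At an unadjusted p under 0.05 there were 20 members, all of them lower, against 22.1% of all genes in either direction. DESeq2 called 10 members lower (background 3.18%) and 0 higher (6.83%), and limma-voom 2 lower (0.596%) and 0 higher (1.13%). The CPM of the groups did not overlap for 20 members, all lower in TPA, where 15.2% of all genes were lower without overlap and 14.3% higher. The fitted value was negative for 32 members and positive for 14, with a median of -0.47, against a median of -0.11 and 56.0% negative over all genes tested. All members together took 0.277%, 0.261% and 0.277% of the counts of TPA libraries 1 to 3 and 0.451%, 0.424% and 0.453% of those of DMSO libraries 1 to 3.

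The number called rested on single libraries. With TPA 1 left out 24 members were called lower (27.8% of all genes) and 11 higher (24.6%). With any 1 of TPA 2, TPA 3, DMSO 1, DMSO 2 or DMSO 3 left out 0 were called in either direction (edgeR). Few or no genes were called at all in those fits. In that order 1, 0, 38, 0 and 0 of all genes were called lower and 24, 2, 101, 0 and 0 higher (22411 to 22904 tested). The adjusted p of TOP2A then lay between 0.0622 (without DMSO 1) and 0.302 (without DMSO 2), and that of BUB1B between 0.0773 and 0.324 for the same libraries. Without both libraries numbered 1, 25 members were called lower (33.3% of all genes) and 14 higher (32.2%), from 2 close libraries against 2. Those higher were CCNB1, PLK1, FOXM1, AURKA, AURKB, INCENP, BIRC5, CDCA8, CDC20, UBE2C, CENPA, PTTG1, ESPL1 and KIF2C. None of these genes was called higher in the fit with GC correction and replicate block. By role, the numbers lower and higher without both were 2 and 3 of 7 for mitotic entry, 0 and 5 of 6 for the Aurora kinases and passenger complex, and 4 and 2 of 7 for the checkpoint and APC/C. They were 4 and 1 of 6 at the kinetochore, 2 and 2 of 4 for cohesion, 4 and 1 of 6 for the kinesins, and 5 and 0 of 6 for spindle-associated proteins. Both genes of cytokinesis and both of chromosome structure were called lower. With the replicate number as a block, 14 members were called lower (background 6.52%) and 0 higher (4.58%). They were CDK1, CCNA2, BUB1B, MAD2L1, CENPF, KNL1, SGO1, KIF11, KIF23, NUSAP1, ASPM, DLGAP5, TOP2A and MKI67, with adjusted p from 0.0117 for BUB1B to 0.0466 for CDK1. Nothing in the labels ties each library to a culture of its own, so these p-values measure only the spread between samples, which may be technical.

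**Figure D2:**
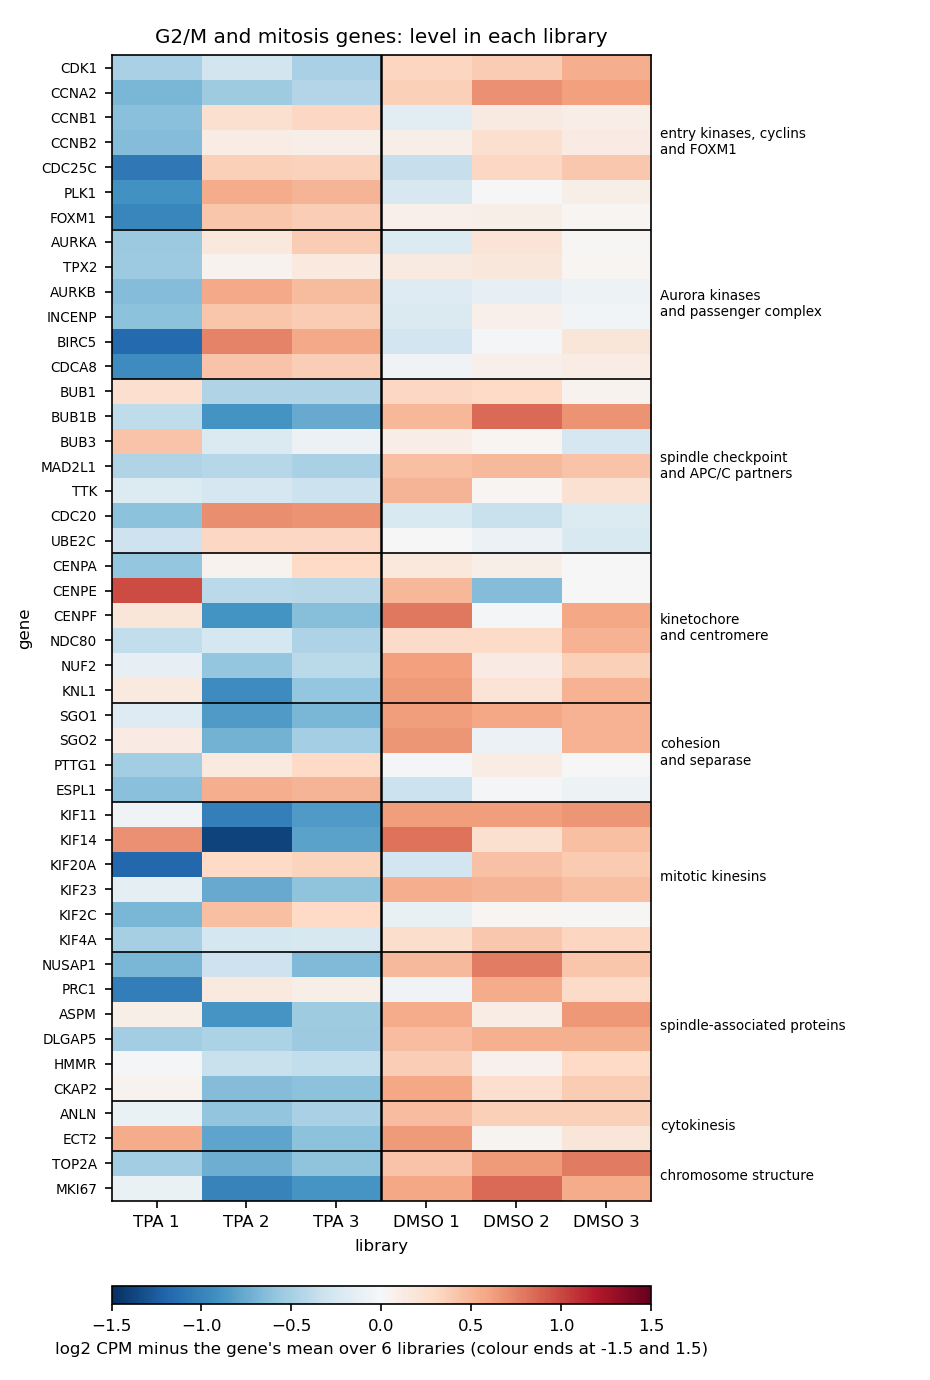
Level of each of the 46 genes in each library (columns), as log2 CPM (no prior count) minus the gene's mean over 6 libraries, grouped by role. The median over the genes, from log2 CPM with a prior count of 2, is -0.49, -0.27 and -0.38 in TPA 1, 2 and 3 and 0.31, 0.19 and 0.31 in DMSO 1, 2 and 3. TPA 2 and TPA 3 are low for some genes and above the mean for others such as CDC20, PLK1, AURKB and BIRC5.

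Among the 7 genes of mitotic entry 0 passed (2 at an unadjusted p under 0.05, against 22.1% of all genes). CCNA2, the cyclin of S phase and G2, had 12.7, 14.1 and 15.0 CPM in TPA, against 26.0, 32.8 and 31.2 CPM in DMSO, with no overlap (log2 -1.11 ± 0.22, adjusted p = 0.0589, and 0.0168 with the block). CDK1, the kinase that drives entry, averaged 20.0 ± 1.75 CPM in TPA and 35.5 ± 2.85 CPM in DMSO (SD, n = 3 each; log2 -0.83 ± 0.21, adjusted p = 0.0821, and 0.0466 with the block). The B cyclins, the partners of CDK1 in mitosis, had other patterns. CCNB2 had 29.9, 50.7 and 50.1 CPM in TPA, against 49.97, 55.8 and 51.5 CPM in DMSO, and CCNB1 averaged 117 ± 37.3 CPM in TPA and 117 ± 12.6 CPM in DMSO. FOXM1, the transcription factor of G2/M genes, had 67.0, 176 and 171 CPM in TPA, against 139, 140 and 134 CPM in DMSO. The fitted value of FOXM1 was 0.00 ± 0.36 as TPA 1 was below and TPA 2 and 3 were above all DMSO libraries. PLK1, an entry kinase, and CDC25C, the phosphatase that activates CDK1, also had their lowest level in TPA 1 (38.8 and 7.25 CPM).

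None of the 6 genes of the Aurora kinases and the chromosomal passenger complex passed. The fitted value was positive for 5 of 6, where 56.0% of all genes had a negative value. However, all 6 had a negative value in the fit with GC correction and replicate block, and CDCA8 had -0.24 with scaling by library size only. The median of the 6 was 0.11, and -0.24 in the corrected blocked fit, where INCENP, for one, had -0.25. Without both libraries numbered 1, AURKB was called higher (0.78, adjusted p = 9.9e-07), as was BIRC5 (0.73, adjusted p = 7.1e-06). AURKB, the kinase of the passenger complex, had 32.7, 76.2 and 71.3 CPM in TPA, against 44.7, 47.0 and 48.6 CPM in DMSO (log2 0.36 ± 0.33, adjusted p = 0.55). BIRC5, the passenger subunit survivin, had 21.6, 81.2 and 72.0 CPM in TPA, against 39.7, 47.5 and 55.1 CPM in DMSO, and CDCA8, the subunit borealin, had 21.1, 54.3 and 52.5 CPM in TPA, against 39.1, 42.8 and 43.8 CPM in DMSO. In all of these TPA 1 was the lowest of the 6 libraries and TPA 2 and 3 the highest. The scaffold INCENP had the same order, with 60.1 CPM in TPA 1. TPX2, which activates Aurora A on the spindle, had a log2 value of -0.20 ± 0.23, and AURKA itself 0.03 ± 0.29.

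Of the 7 genes of the spindle checkpoint and its target APC/C, BUB1B fell, 0 rose and 6 did not pass. MAD2L1, the checkpoint protein Mad2, had 12.3, 12.5 and 12.0 CPM in TPA, against 23.0, 23.6 and 22.6 CPM in DMSO. The groups of MAD2L1 were narrow and far apart (log2 -0.91 ± 0.20, adjusted p = 0.0671, and 0.0307 with the block). TTK, the checkpoint kinase Mps1, averaged 25.2 ± 0.975 CPM in TPA and 36.5 ± 6.16 CPM in DMSO (adjusted p = 0.211). BUB3, which brings BUB1 and BubR1 to kinetochores, had 215, 137 and 150 CPM in TPA, against 172, 162 and 134 CPM in DMSO, with overlapping groups. BUB1 had a log2 value of -0.40 ± 0.26. CDC20, the APC/C activator that the checkpoint holds back, had 54.8, 136 and 134 CPM in TPA, against 71.2, 66.7 and 72.7 CPM in DMSO. It had the most positive fitted value of all members, 0.63 ± 0.35 (adjusted p = 0.34), with TPA 1 below and TPA 2 and 3 above every DMSO library. CDC20 was called higher without both libraries numbered 1 (1.11, adjusted p = 1.4e-08). In the fit with GC correction and replicate block it had 0.14 (adjusted p = 0.558). UBE2C, an E2 enzyme of the APC/C, also had TPA 1 below and TPA 2 and 3 above every DMSO library (0.23 ± 0.24).

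At the kinetochore and centromere 0 of 6 genes passed, and 4 had an unadjusted p under 0.05 (22.1% of all genes). NDC80 and NUF2 encode the paired subunits of the complex that grips microtubules. NDC80 averaged 12.2 ± 0.865 CPM in TPA and 20.2 ± 1.92 CPM in DMSO (log2 -0.73 ± 0.21, adjusted p = 0.104), and NUF2 averaged 11.7 ± 1.89 CPM in TPA and 19.5 ± 3.30 CPM in DMSO (log2 -0.74 ± 0.24, adjusted p = 0.138). KNL1, the platform for the BUB proteins, had 40.6, 19.1 and 24.5 CPM in TPA, against 56.9, 42.1 and 52.3 CPM in DMSO, without overlap, and passed with the block (0.0415). CENPF, a large kinetochore protein of G2, had 578, 274 and 327 CPM in TPA, against 882, 497 and 762 CPM in DMSO, with overlap and a pass with the block (0.0402). CENPA, the centromeric histone, had 10.1, 15.6 and 18.6 CPM in TPA, against 16.9, 16.02 and 15.0 CPM in DMSO. The kinesin CENPE was highest in TPA 1 (58.3 CPM) and had a log2 value of 0.20 ± 0.46.

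Among the 4 genes of sister chromatid cohesion and its release 0 passed. SGO1, the shugoshin that protects centromeric cohesin, had 10.9, 6.92 and 7.76 CPM in TPA, against 19.2, 18.6 and 17.9 CPM in DMSO (log2 -1.12 ± 0.25, adjusted p = 0.0679, and 0.0174 with the block). SGO2, the related shugoshin, had a log2 value of -0.72 ± 0.32. ESPL1, the protease separase, had 40.5, 91.4 and 88.7 CPM in TPA, against 49.9999, 61.1 and 59.5 CPM in DMSO, and PTTG1, its inhibitor securin, had 48.0, 76.4 and 85.1 CPM in TPA, against 67.8, 74.4 and 69.2 CPM in DMSO. Separase and securin thus had overlapping groups in which TPA 1 was lowest.

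Of the 6 mitotic kinesins 0 passed and 3 had no overlap between groups, all lower (15.2% of all genes were lower without overlap). KIF11, the motor that pushes spindle poles apart, had 40.4, 20.5 and 23.3 CPM in TPA, against 64.7, 64.4 and 66.4 CPM in DMSO (log2 -1.22 ± 0.30, adjusted p = 0.078, and 0.0168 with the block). KIF23, the motor of the central spindle, had 42.6, 27.96 and 30.9 CPM in TPA, against 68.4, 66.8 and 64.3 CPM in DMSO (log2 -0.98 ± 0.23, adjusted p = 0.0752, and 0.0279 with the block). KIF4A, which shortens central spindle microtubules, averaged 36.2 ± 3.58 CPM in TPA and 57.3 ± 2.73 CPM in DMSO (log2 -0.66 ± 0.20, adjusted p = 0.116). These motors were below DMSO in every TPA library. KIF2C, a microtubule depolymerase, had 45.6, 100 and 90.4 CPM in TPA, against 68.1, 74.8 and 74.4 CPM in DMSO. KIF14 and KIF20A, both of cytokinesis, had log2 values of -0.75 ± 0.51 and -0.25 ± 0.42.

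All 6 spindle-associated proteins had negative values (56.0% of all genes), 5 without overlap (15.2% of all genes), and 0 passed. DLGAP5, which stabilises kinetochore fibres, had 10.3, 10.7 and 10.1 CPM in TPA, against 20.3, 21.4 and 21.3 CPM in DMSO (log2 -1.02 ± 0.20, adjusted p = 0.059, and 0.0215 with the block). CKAP2 had 59.3, 36.3 and 37.3 CPM in TPA, against 85.2, 67.9 and 74.3 CPM in DMSO (-0.77 ± 0.26, adjusted p = 0.147). NUSAP1, a microtubule bundling protein, averaged 2.48 ± 0.381 CPM in TPA and 5.36 ± 0.702 CPM in DMSO (log2 -1.11 ± 0.26, adjusted p = 0.0747). PRC1, which crosslinks the central spindle, had 6.49, 14.8 and 14.2 CPM in TPA, against 12.8, 19.6 and 16.3 CPM in DMSO, with overlap. In GENCODE 29, 62.2% of the exon bases of NUSAP1 and 58.4% of those of PRC1 lie in exons of another annotated gene, so the counts of both are uncertain. For no other member was that share above 17.7% (SGO1). ASPM, of the spindle poles, passed with the block (0.0456), and HMMR, a spindle and hyaluronan-binding protein, did not (0.167).

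The cytokinesis genes ANLN, the anillin of the contractile ring, and ECT2, the exchange factor that sets that ring, did not pass. ANLN had 219, 156 and 167 CPM in TPA, against 323, 301 and 301 CPM in DMSO (log2 -0.77 ± 0.21, adjusted p = 0.0923). ECT2 had 109, 42.8 and 48.6 CPM in TPA, against 116, 76.6 and 84.1 CPM in DMSO, so TPA 1 lay among the DMSO libraries. MKI67, the proliferation marker Ki-67 that coats mitotic chromosomes, had 251, 134 and 146 CPM in TPA, against 404, 485 and 395 CPM in DMSO. Its groups did not overlap (log2 -1.27 ± 0.28, adjusted p = 0.0683, and 0.0169 with the block).

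Per kilobase of the longest annotated transcript, mean levels ran from 1.03 (NUSAP1) to 102 CPM per kb (UBE2C) in TPA and from 2.23 (NUSAP1) to 87.3 CPM per kb (UBE2C) in DMSO. On that scale TOP2A stood at 16.1 CPM per kb in TPA and 37.8 CPM per kb in DMSO, and MKI67 at 14.0 in TPA and 33.7 in DMSO. The place of NUSAP1 at the low end is uncertain, as 62.2% of its exon bases lie in exons of another gene.

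Within pair 1 nearly all mitotic genes were lower in TPA, and within pairs 2 and 3 they went both ways. The log2 ratio was below 0 for 44 of 46 members in pair 1, all but BUB3 and CENPE, where 51.5% of all genes were below 0. In pair 2 it was below 0 for 32 members (56.5% of all genes) and in pair 3 for 30 (56.3%). The median ratio of the members was -0.67, -0.48 and -0.56 in pairs 1, 2 and 3, against -0.02, -0.19 and -0.17 for all genes. In all 3 pairs 28 members were lower, where 29.6% of all genes were. Higher in all 3 pairs were 0 members, and the share of all genes for this was not counted. MAD2L1 (-0.90, -0.92 and -0.91), DLGAP5 (-0.98, -0.999 and -1.07) and NUSAP1 (-1.15, -1.06 and -1.07) had nearly the same log2 ratio in each pair. FOXM1 (-1.05, 0.33 and 0.35), BIRC5 (-0.87, 0.77 and 0.39) and CDC20 (-0.38, 1.03 and 0.88) turned sign between pair 1 and the others. The differences between pairs were not tested, since each pair is 1 library against 1.

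**Figure D3:**
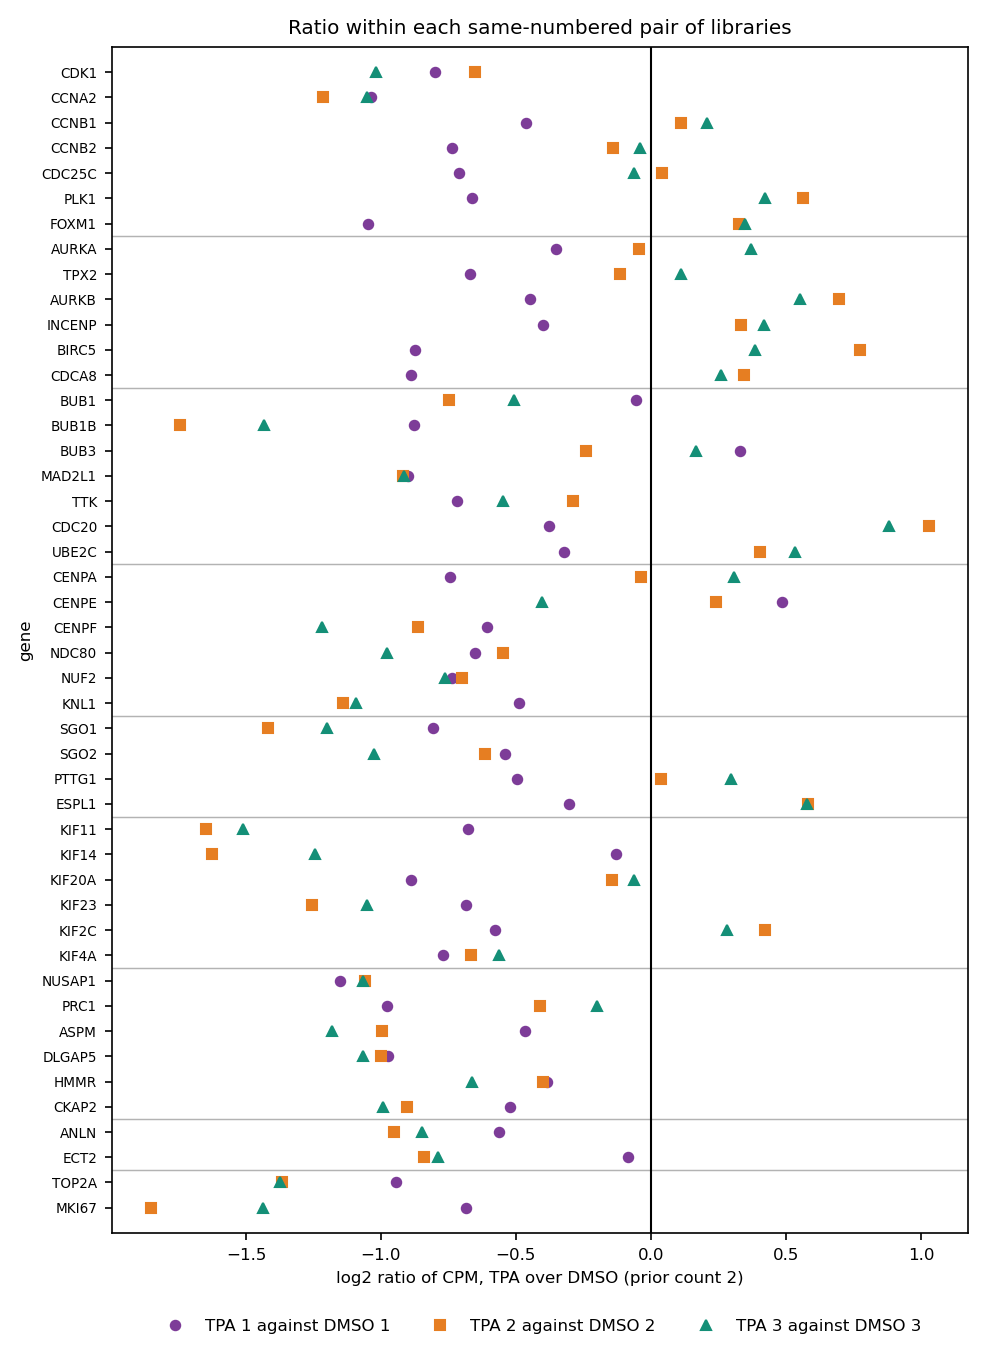
Log2 ratio of CPM, TPA over DMSO (horizontal axis), of each of the 46 genes within pair 1 (circles), pair 2 (squares) and pair 3 (triangles). The circles lie below 0 for 44 genes, while squares and triangles lie on both sides of 0.

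The ratios of pairs 2 and 3, unlike those of pair 1, went with the GC content of the transcripts. Members had a median GC content of 42.6%, from 34.7% (SGO2) to 59.6% (INCENP), against 48.2% for the tested genes. Over the 46 members, Spearman's rho of the ratio with GC content was -0.11 in pair 1, 0.63 in pair 2 and 0.71 in pair 3. Over 12004 expressed genes it was -0.11, 0.67 and 0.61, and these values are descriptions across genes that share the same libraries. The 33 members under the median GC content of expressed genes (48.3%) had median log2 ratios of -0.68, -0.75 and -0.91 in pairs 1, 2 and 3, against 0.08, -0.67 and -0.48 for all expressed genes under it. The 13 members at or above it had -0.58, 0.40 and 0.39, against 0.02, 0.58 and 0.46 for all such genes. In pair 1 all 13 of these GC-richer members were lower in TPA, and in pairs 2 and 3 only 2 of 13 were. Among the 33 GC-poorer members 31, 30 and 28 were lower. Without both libraries numbered 1, 24 of the 33 GC-poorer members were called lower and 3 higher. Of the 13 GC-richer members 1 was then called lower and 11 higher (33.3% of all genes lower, 32.2% higher). The part of the GC trend in the group difference was not tested beyond the correction that follows.

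**Figure D4:**
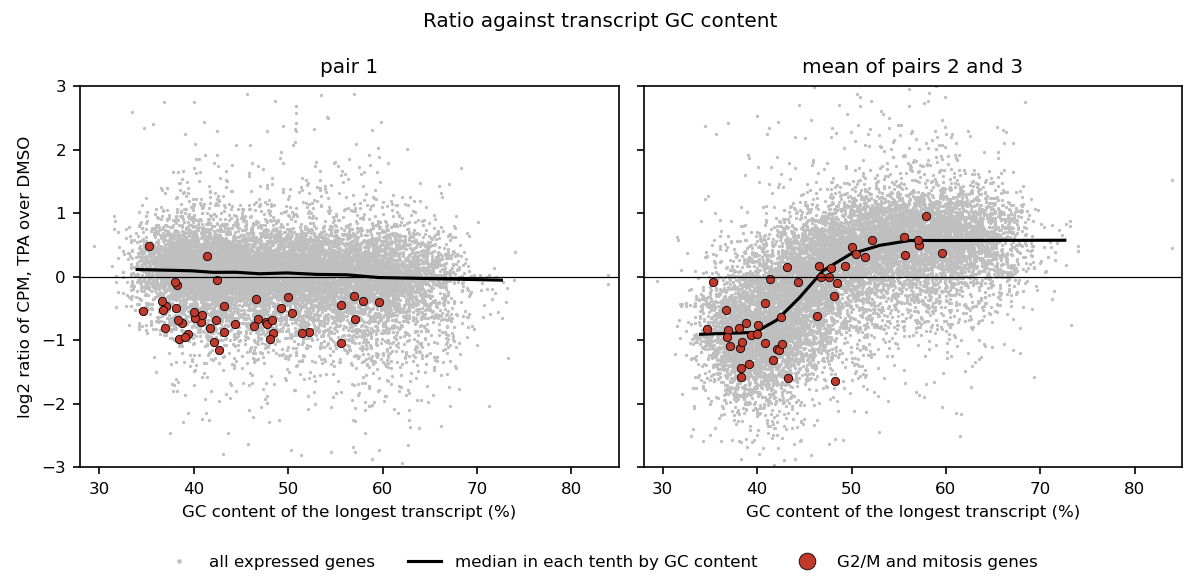
Log2 ratio of CPM, TPA over DMSO, against the GC content of the longest transcript, in pair 1 (left) and as the mean of pairs 2 and 3 (right); grey points are 12004 expressed genes, the line is the median in equal-sized bins of genes by GC content, and red points are the 46 mitotic genes. On the left all red points but BUB3 and CENPE lie below 0, and on the right they follow the slope of the line (Spearman's rho 0.68).

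When each library's trend on GC content was removed and the replicate block kept, a correction chosen with the trend known, 9 members were called lower (10.8% of all genes) and BUB3 higher (9.18%). Those lower were CCNA2, BUB1B, SGO1, KIF11, KIF23, KIF4A, PRC1, TOP2A and MKI67. MKI67 had -1.47 ± 0.25 in this fit (adjusted p = 0.0166), BUB1B -1.04 ± 0.11 (adjusted p = 0.0054) and TOP2A -0.67 ± 0.14 (adjusted p = 0.0296), while BUB3 had 0.55 ± 0.12 (adjusted p = 0.0341). With the correction and no block 6 members were called lower (3.23% of all genes) and 0 higher (3.38%), BUB1B among those lower, and TOP2A was not (-0.61, adjusted p = 0.24). The median of the members was -0.25 in the corrected blocked fit, against -0.15 for all genes. The corrected pair medians were -0.72, -0.02 and -0.14, against -0.05, -0.15 and -0.17 for all genes, so the members' median lay below that of all genes in pair 1 alone. In the corrected ratios 22 members were lower in all pairs, where 36.1% of all genes were. Higher in all pairs were 2 members, and the share of all genes for this was not counted. Among members called with the block alone, CDK1 (-0.25, adjusted p = 0.449), MAD2L1 (-0.36, adjusted p = 0.267) and DLGAP5 (-0.44, adjusted p = 0.19) did not pass. Nor did CENPF (adjusted p = 0.119), KNL1 (0.100), NUSAP1 (0.0737) and ASPM (0.135). FOXM1 had 0.00 before correction and -0.49 after it (adjusted p = 0.115).

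**Figure D5:**
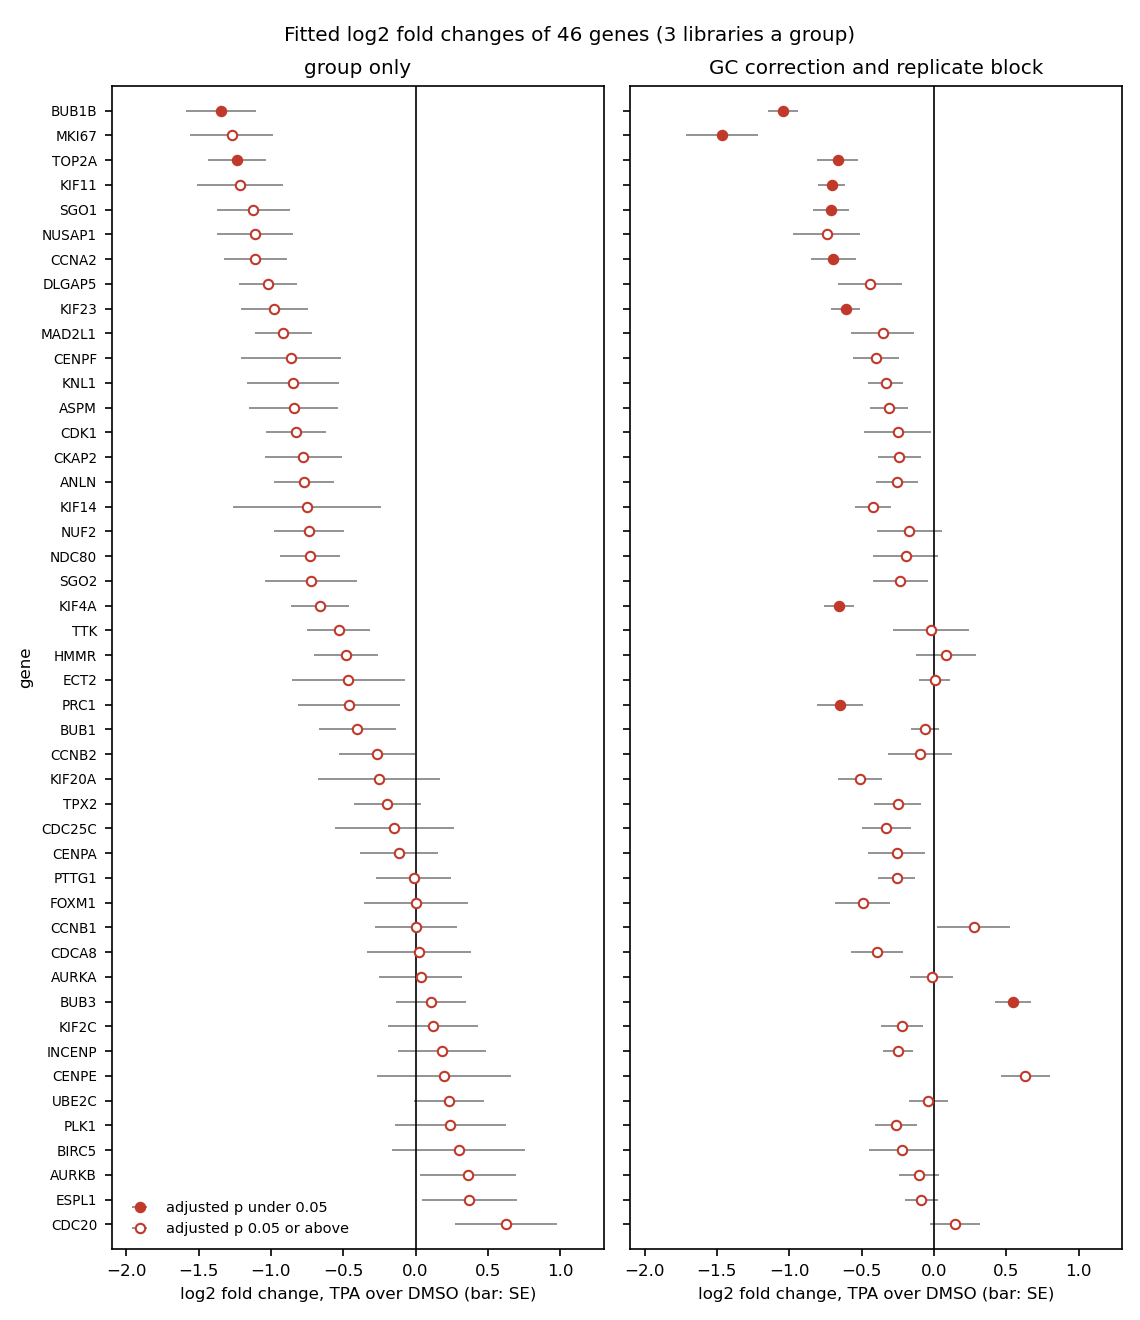
Fitted log2 fold change, TPA over DMSO, with SE, of the 46 genes in the fit with the group only (left) and in the fit with GC correction and replicate block (right); filled points have an adjusted p under 0.05. On the left 2 genes are filled and values run from -1.35 (BUB1B) to 0.63 (CDC20), and on the right 9 are filled below 0 and 1, BUB3, above 0.

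Other genes of the division machinery, from lists that share no gene with the members, gave similarly few calls, and all of their members were tested. Of all genes tested 0.394% were called lower and 0.861% higher, and their median was -0.11. Of 29 further kinetochore and centromere genes 1 fell, 0 rose and the median was -0.32. The gene that fell was NSL1, a subunit of the Mis12 complex, with 49.3 ± 6.995 CPM in TPA and 132 ± 20.1 CPM in DMSO (log2 -1.42 ± 0.23, adjusted p = 0.0410). Leaving out TPA 2, TPA 3, DMSO 1, DMSO 2 or DMSO 3 ended the call of NSL1, with adjusted p from 0.0612 (without DMSO 1) to 0.295 (without DMSO 2). In those fits at most 38 of all genes tested were called lower (without DMSO 1). SPC25, a partner of NDC80, averaged 4.51 ± 0.221 CPM in TPA and 9.74 ± 1.04 CPM in DMSO (adjusted p = 0.063). Of 18 condensin and cohesin genes 0 passed, with a median of -0.53, and NCAPG2 and NCAPG, condensin subunits, had -1.08 ± 0.21 and -1.13 ± 0.24. Of 20 regulators of mitotic entry and MuvB genes 0 passed (median -0.16), among them WEE1, the kinase that inhibits CDK1 (-0.75 ± 0.19), and RBL1, the pocket protein p107 (-1.05 ± 0.31). Of 17 APC/C genes 0 passed (median -0.10), with FBXO5, the inhibitor Emi1, at -0.65 ± 0.25 and UBE2S, an E2 enzyme, at 0.83 ± 0.33. With the block 5, 5, 2 and 0 genes of these lists were called lower (6.52% of all genes) and 0 higher (4.58%). Without both libraries numbered 1, 12, 12, 7 and 6 of them were called lower (33.3% of all genes) and 7, 4, 9 and 7 higher (32.2%).

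The 32 genes of DNA replication and nucleotide supply had a median of 0.12, against -0.47 for the mitotic genes and -0.11 for all genes. Of the 32 genes 0 passed, where 0.394% of all genes were called lower and 0.861% higher. With the block 3 of the 32 were called lower (6.52% of all genes) and 0 higher (4.58%). Without both libraries numbered 1, 8 were called lower (33.3% of all genes) and 20 higher (32.2%). The pair medians of the 32 genes were -0.58, 0.35 and 0.26, against -0.67, -0.48 and -0.56 for the mitotic genes. Their median GC content was 48.2% against 42.6%. In the corrected blocked fit the medians were -0.14 and -0.25. RFC3, a clamp loader subunit, had 17.8 ± 3.27 CPM in TPA and 37.5 ± 2.90 CPM in DMSO (adjusted p = 0.0651), and RRM1, of ribonucleotide reductase, had 80.1 ± 8.8003 CPM in TPA and 139 ± 14.5 CPM in DMSO (adjusted p = 0.0837). In pair 1 both lists were thus lower in TPA at the median, and no difference between the lists was tested.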

How the data were processed

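RNA sequencing of total RNA gave 3 TPA and 3 DMSO libraries. The deposited values are raw read counts per gene symbol. Per the submitters' processing notes, HISAT2 2.1.0 and HTSeq 0.12.4 were used with hg38/GRCh38; the sources used here give no annotation release, strand setting or read layout. Columns named control were matched to DMSO by number.

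Counts were tested with edgeR 4.0.16 (R 4.3.3; TMM, filterByExpr, group only, quasi-likelihood F-test, Benjamini-Hochberg over 21825 genes, threshold 0.05). CPM uses TMM-scaled library sizes, and log2 CPM and pair ratios a prior count of 2. SE is the estimate over the square root of F. Across genes, a library's deviation from its group mean correlated with that of its namesake in the other group at 0.665, 0.439 and 0.660. Same numbers were treated as pairs, but these correlations set apart only pair 1. TPA 2 was closer to DMSO 3 (0.656) than to DMSO 2 (0.439), and TPA 3 with DMSO 2 had 0.490. Pairs 2 and 3 are thus not told apart by the data, and they and the block rest on the numbers in the labels.

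GC content and length (longest transcript) came from GENCODE 29, with 96.3% of tested genes matched. The correction used a robust spline with 5 degrees of freedom per library, fitted on genes over log2 CPM 2, as an offset. Alternatives were RLE, upper-quartile and no scaling factors, no filter, DESeq2 1.42.0, limma-voom 3.58.1, the block, the correction with and without it, and left-out libraries. The test was checked on simulated counts that held no outlying library and no GC trend, so that check does not cover these features of the data. Genes were named by a rule: those that passed, per role those with the 3 lowest and the highest unadjusted p (all, in roles of 2), and per other list those with the 2 lowest; others were named after their values were seen. Members and lists were chosen with earlier results of these data known.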

Additional observations from a re-analysis of the deposited data

How the results depend on the processing

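The median of the members was negative under every alternative, from -0.73 with library size only to -0.23 with the GC correction without the block. It was -0.35 with DESeq2, -0.25 with the correction and block, and -0.56 to -0.42 with single libraries left out. The number of members called lower, 2 in the fit reported, was 1 with RLE factors, 5 with library size only, 10 with DESeq2, 14 with the replicate block, 9 with the correction and block (and 1 higher), 6 with the correction alone, 0 to 24 with single libraries left out (0 to 11 higher), and 25 lower and 14 higher without both libraries numbered 1. It did not change with upper-quartile factors, no filter or limma-voom. The share of all genes called lower moved too, from 0.394% in the fit reported to 3.18% with DESeq2 and 6.52% with the block. That share was 10.8% with the correction and block (9.18% higher), 3.23% with the correction alone and 33.3% without both libraries numbered 1 (32.2% higher). With single libraries left out it was 0 to 27.8%. RLE factors gave 77 and library size only 219 of 21825 genes lower. BUB1B lost its call with RLE factors (adjusted p = 0.0516), and TOP2A and NSL1 with the correction without the block. Over all genes the median was -0.36 with library size only and -0.01 with RLE factors, against -0.11 in the fit reported. The causes of these differences were not tested.

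Among named genes, FOXM1 had -0.27 with library size only, -0.12 with limma-voom and with the block, -0.49 with the correction and block and -0.47 with the correction alone. CDCA8 had -0.24, -0.093, -0.088, -0.40 and -0.35 under these 5. PTTG1 had 0.10 with RLE factors, 0.0071 with upper-quartile factors, 0.10 without a filter, 0.13 with DESeq2 and 0.32 without both libraries numbered 1. KIF2C had -0.14 with library size only, -0.22 with the correction and block and -0.19 with the correction alone. BUB3 had -0.14 with library size only. CENPA had 0.029 with DESeq2 and 0.30 without both libraries numbered 1, where CCNB2 had 0.063 and TPX2 0.15. AURKB had -0.10 and -0.088, BIRC5 -0.22 and -0.13, and ESPL1 -0.086 and -0.075 with the correction with and without the block. ECT2 had 0.0041 with the correction and block, and TTK 0.037 with the correction alone. With single libraries left out, values ran from -0.37 to 0.054 for CCNB2, -0.31 to 0.10 for TPX2, -0.0060 to 0.24 for BUB3, -0.30 to 0.21 for CENPA, -0.17 to 0.31 for PTTG1, -0.19 to 0.44 for FOXM1, -0.17 to 0.46 for CDCA8 and -0.070 to 0.51 for KIF2C.

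Counts are of reads and not of molecules, and 3 libraries a group limit every test. The corrected fit also removes any treatment effect that follows GC content.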
